A study of Mus musculus with 10 samples.

Results

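The genes described here fell strongly in mouse aortic smooth muscle cells after cholesterol loading and were still far below baseline after the loaded cells had been treated with high-density lipoprotein (HDL). They were chosen from measured values. A gene was taken when its group mean lay at least 1.5 below the baseline mean on the log2 scale, a 2.83-fold fall, in both the cholesterol and the HDL group, and when each of the 4 loaded arrays lay below both baseline arrays. Of 16860 genes 100 met these conditions. Of these, 4 were left out by name in the rule, which leaves 96 genes, or 0.569% of those measured. The 4 genes left out changed by -5.75 to -2.07 after cholesterol and by -5.74 to -1.86 after HDL, and 2 of them fell further than every member in both groups. On all 4 loaded arrays 3 of the 4 lay under the 25th percentile of the array. No gene passed both thresholds with overlapping arrays.

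The cells were primary smooth muscle cells from the thoracic aorta of C57BL/6 mice aged 8 weeks, passaged at most 5 times and grown in medium with 10% fetal bovine serum. Each of the 3 groups had 2 arrays. Baseline cells received no stimulus. The cholesterol group was given cholesterol at 10 µg/mL, complexed with methyl-β-cyclodextrin at 6 molar parts to 1 of cholesterol, and harvested after 72 h; the HDL group had the same loading and then 72 h with human HDL at 100 µg/mL. Both loaded groups share the carrier and the time of loading, and no group given these without cholesterol was analysed here, so they cannot be told apart from cholesterol in any difference from baseline. The HDL cells were also harvested later than the cholesterol cells, and that time cannot be told apart from HDL. The labels give neither the sex of the mice nor whether arrays came from separate isolates, so the origin of the cells cannot be told apart from loading in any fall from baseline, that of the 4 genes left out included, and p-values measure only the spread between these arrays, which may be technical. In RNA from whole cultures, fewer cells of a type and less RNA per cell cannot be told apart.

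Smooth muscle cells of the artery wall take up cholesterol in atherosclerosis, and loaded cells can lose contractile features and come to resemble foam cells. Sterols that reach the endoplasmic reticulum hold back the processing of the transcription factors that drive sterol synthesis and uptake, while their oxidised forms activate nuclear receptors for cholesterol export. HDL accepts cholesterol from cells and so can lower their load. The deposited table identifies genes by Ensembl identifier and does not pair these with names, and the reference table used here holds no Ensembl identifiers, so no role is given to single genes and the labelled cell type could not be checked against its markers.

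A gene had to start well above the dim end of the array to fall this far, so the rule itself favours genes that are bright at baseline and lower after loading, and the levels below describe the members and test nothing. Values are log2 intensities, normalized by the authors over all 6 arrays. The median member value was 9.37 and 9.48 on the baseline arrays, 7.08 and 7.19 on the cholesterol arrays, and 7.35 and 7.57 on the HDL arrays, while the median of all genes stayed between 6.93 and 6.98. The rule itself sets the order of baseline and loaded arrays. At baseline the median member stood at the 81.0th percentile of genes, and 88 of 96 lay above the median gene on both arrays. After loading, 44 still lay above the median gene on all 4 arrays.

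Only 7 members lay under the 25th percentile of the array on all 4 loaded arrays. These had baseline means of 5.74 to 7.12 and loaded values of 3.93 to 4.93. The authors' background step compresses changes of dim genes, so the falls of these 7, of which the smaller of each pair ranged from -2.37 to -1.54, may be understated.

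The falls, as the values that chose the genes, are given without a test. The change from baseline to cholesterol ranged from -4.17 to -1.51 with a median of -2.20, a 4.60-fold fall. The change from baseline to HDL ranged from -4.17 to -1.50 with a median of -2.01, a 4.04-fold fall. A fall of at least 2 in both groups was seen in 35 members and of at least 3 in 5. The distance from the lower baseline array to the highest loaded array ran from 0.74 to 3.66 with a median of 1.61, and reached 2 or more in 23 members. By limma, a linear model that shares the estimate of the spread between genes, 96 members were called lower after cholesterol (analysis I of the authors, 16% of all genes called lower) and 95 after HDL (10.9%). The rule used both contrasts, so nothing is read from these counts.

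**Figure D1:**
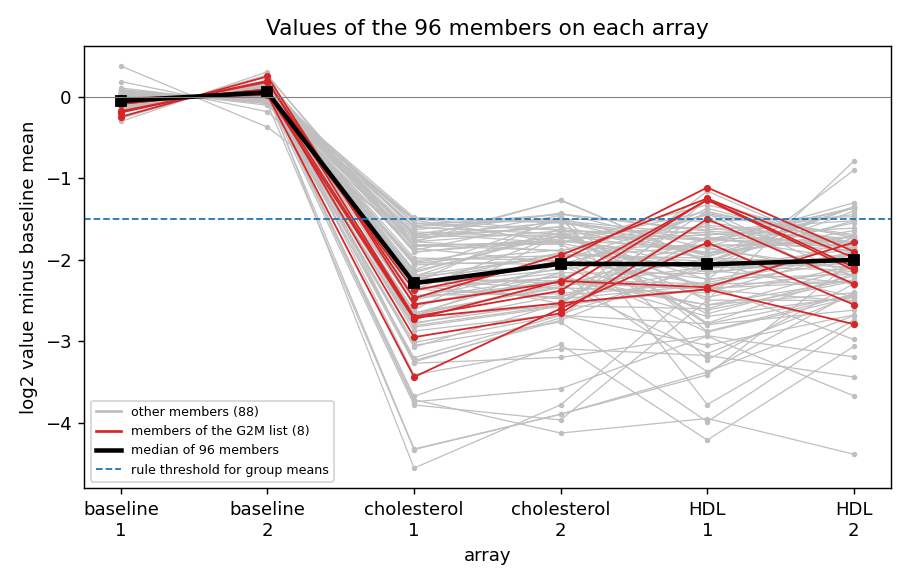
Log2 value of each of the 96 members on the 6 arrays, as the difference from its baseline mean. Grey lines are 88 members, and red lines the 8 members in a list of G2 and M phase genes built from gene pairs of the scran package. The black line is the median, and the dashed line the threshold that group means had to pass. The median lay at -2.29 and -2.05 on the cholesterol arrays and at -2.06 and -2.00 on the HDL arrays.

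The threshold cut through a continuous range. The 3 members nearest to it had smaller falls of -1.50, -1.51 and -1.51, and the 3 nearest genes outside, whose arrays were also separate, had -1.49, -1.47 and -1.46. In all, 23 members had a smaller fall within 0.1 of the threshold. In the authors' other normalization, which held the baseline and cholesterol arrays alone, the members' change to cholesterol had a median of -2.17, and 4 of 96 lay short of the threshold.

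ENSMUSG00000013584_at had the deepest fall by the smaller of its changes. Its values were 9.37 and 9.50 at baseline, 5.72 and 5.31 after cholesterol, and 5.49 and 5.05 after HDL. All loaded arrays were at least 3.66 below baseline and the loaded groups overlapped. The group means were 9.44 ± 0.09, 5.51 ± 0.29 and 5.27 ± 0.31 (SD, n = 2 each), falls of 15.2-fold and 18.0-fold. ENSMUSG00000001467_at came next, with 10.83 and 11.00 at baseline, 7.23 and 7.87 after cholesterol, and 6.70 and 7.85 after HDL. Here both cholesterol arrays lay within 0.64 of each other, but the HDL arrays were 1.15 apart, and the second array was the higher in all 3 groups.

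These genes belong to the 5 members that fell by at least 3 in both groups. Their change from baseline ran from -3.92 to -3.23 after cholesterol and from -4.17 to -3.06 after HDL. Another 5 members had fallen by at least 3 after cholesterol but by less after HDL, and a further 3 had done so after HDL alone. These sets are split by the values that chose the members, and the split fixes which loaded group is the lower in the last sets, so nothing is read from their difference between HDL and cholesterol.

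**Figure D2:**
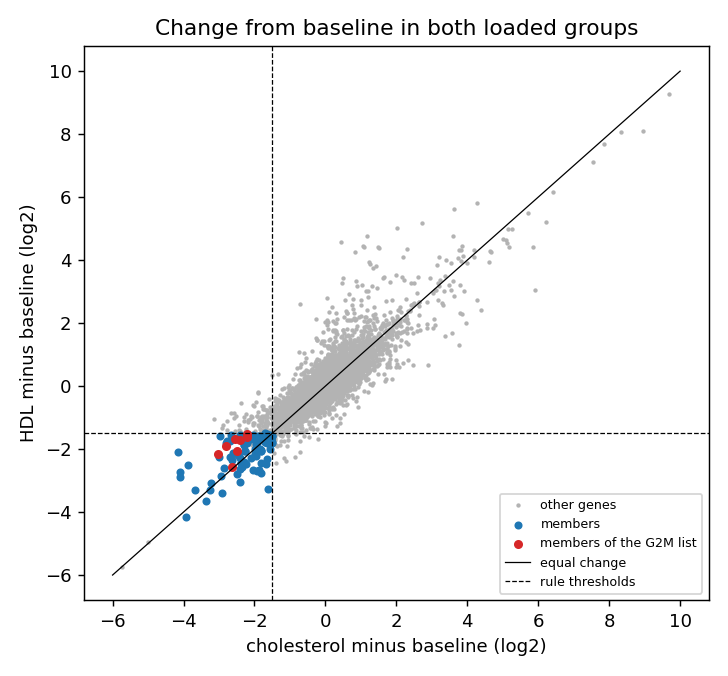
Change from baseline after cholesterol (x axis) and after HDL (y axis) for all genes, both log2; blue points are the 96 members, red points those in the G2 and M phase list, dashed lines the thresholds and the solid line equal change. Members spread on both sides of the line of equal change, and the 4 genes left out by the rule are among the grey points.

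HDL was then compared with cholesterol, which asks whether members moved between the loaded groups. The rule did not use this contrast, but it bounds it: a member that had fallen by little more than 1.5 after cholesterol could not return far and still qualify. The median difference over members was 0.10, against 0.0037 over all genes, and single members ranged from -1.65 to 2.09. The direction of this median rested on 1 array: leaving out cholesterol replicate 1 gave -0.0076, and leaving out the other cholesterol array 0.19. Dropping HDL replicate 2 gave 0.05 and dropping HDL replicate 1 gave 0.14. Of 96 members 52 lay higher after HDL and 44 lower. Differences of at least 0.5 upward were found for 21 members and downward for 9. Among all genes 3.78% and 2.32% differed by as much.

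limma called 5 of 96 members between the loaded groups (5.21%), 3 higher and 2 lower, at an adjusted p under 0.05 over all 16860 genes. Of all genes 2.73% were called, 1.79% higher and 0.949% lower. A further 12 members, 9 of them higher, had an adjusted p between 0.05 and 0.1, and 39 members had an unadjusted p under 0.05 against 18% of all genes. Both HDL arrays lay above both cholesterol arrays for 32 members, or 33.3% (24.7% of all genes), and below them for 22, or 22.9% (22.4% of all genes). In the other 42 members the loaded groups overlapped.

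ENSMUSG00000024747_at rose most. It read 12.16 and 12.23 at baseline, fell to 7.64 and 8.42 after cholesterol, and read 9.95 and 10.29 after HDL. Both HDL arrays stood above both cholesterol arrays and below both baseline arrays. It rose by 2.09 ± 0.24 (SE; limma adjusted p = 0.00861), 4.26-fold, and still kept 49.9% of its fall, the smallest share of any member. ENSMUSG00000001349_at read 10.51 and 10.52 at baseline, 6.73 and 6.55 after cholesterol, and 8.02 and 8.02 after HDL. Its groups were in the same order and did not overlap. It rose by 1.38 ± 0.10 (SE; limma adjusted p = 0.00101) and kept 64.5% of its fall. The third member called higher rose by 0.94 ± 0.11 (SE; limma adjusted p = 0.00861) and kept 65.1%.

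The other calls were further falls. Both genes had changed by little more than the limit after cholesterol (-1.61 and -1.64), so the rule left them almost no room to rise. Their direction is therefore not read as a result about the members. ENSMUSG00000026051_at read 11.90 and 11.69 at baseline, 10.03 and 10.33 after cholesterol, and 8.01 and 9.05 after HDL. The groups were ordered from baseline to HDL without overlap, although the HDL arrays were 1.04 apart. It fell by 1.65 ± 0.31 on the log2 scale between cholesterol and HDL (SE; limma adjusted p = 0.0430), beside a first fall of 1.61. Leaving out HDL replicate 1 made the second step -1.13, and leaving out the other HDL array made it -2.17. ENSMUSG00000015354_at read 11.61 and 11.61 at baseline, 10.00 and 9.92 after cholesterol, and 9.26 and 9.34 after HDL. Here replicates differed by little, and the step from cholesterol to HDL was -0.67 ± 0.09 (SE; limma adjusted p = 0.0141). With the cholesterol and HDL arrays alone both of these falls missed the threshold (adjusted p = 0.124 and 0.0609), while the 3 rises passed it. Both falls also missed it without cholesterol replicate 1 (adjusted p = 0.206 and 0.131) or cholesterol replicate 2 (0.202 and 0.0778), as did the third rise without cholesterol replicate 1 (adjusted p = 0.0640). Over all alternatives run, the adjusted p of these falls ranged from 0.000609 to 1 and from 0.00826 to 1.

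**Figure D3:**
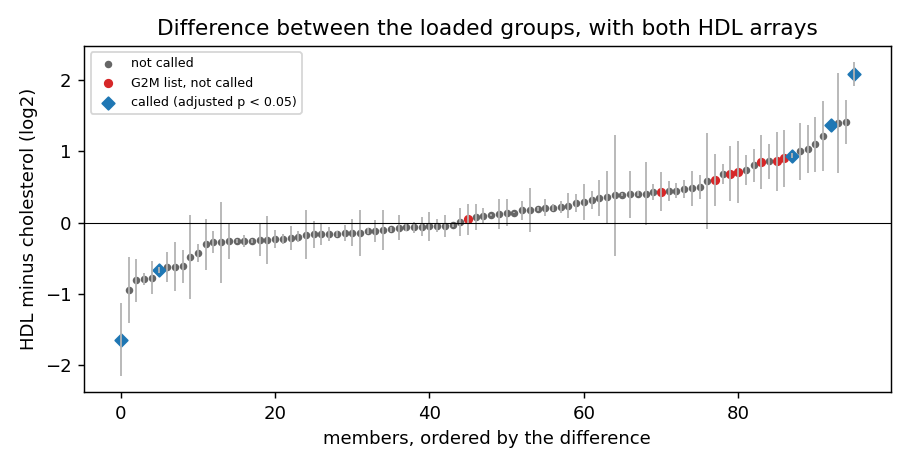
HDL minus cholesterol (log2) for each member in rising order; points are differences of group means, vertical lines join the 2 HDL arrays, each less the cholesterol mean, blue diamonds are the 5 called members and red points the members in the G2 and M phase list. The lower and upper quartiles of the members lie at -0.18 and 0.45, against -0.11 and 0.12 for all genes. The rises reach 2.09 while the falls reach -1.65.

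The count of members called rested on 1 array. Without HDL replicate 2, the remaining HDL array was assumed to vary like the other groups, and 32 of 96 members (33.3%) were called, 21 higher and 11 lower, against 9.82% of all genes. Without HDL replicate 1 the count of members rose less, while that of all genes fell. Without any single cholesterol or baseline array both counts fell. The median size of the difference between replicate arrays was 0.12 at baseline, 0.25 after cholesterol and 0.38 after HDL for members, and 0.09, 0.10 and 0.14 for all genes. Between the HDL arrays 33 members differed by 0.5 or more and 6 by 1 or more, where 6.36% and 0.907% of all genes did.

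These differences ran both ways. On the HDL arrays 21 members were higher by at least 0.5 in replicate 2 and 12 in replicate 1. Of those 21, the second cholesterol array was also the higher in 20. Of those 12, the second cholesterol array was the higher in 11, and 6 of the 12 were in the list of G2 and M phase genes described next. Over all members, the second array was the higher in 75 of 96 after cholesterol and in 69 at baseline, where 48.2% and 43.2% of all genes were.

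**Figure D4:**
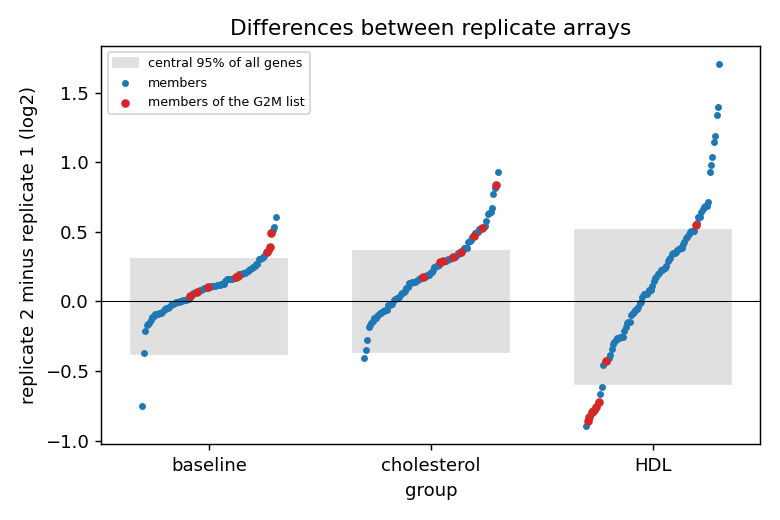
Replicate 2 minus replicate 1 (log2) of each member in the 3 groups, in rising order; red points are members in the G2 and M phase list and grey blocks span the central 95% of all genes. Members extend beyond the block in every group, furthest after HDL, where they run from -0.90 to 1.71.

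Genes of the G2 and M phases, when a cell prepares for division and divides, made up part of the members. Lists of cell cycle genes were built here, with the cutoffs given below, from gene pairs supplied by identifier with the scran package. They had 91 measured G2 and M genes, 95 S phase genes and 125 G1 genes. Members numbered 8 of the G2 and M list (8.79%), 0 of the S list and 1 of the G1 list (0.8%), beside 0.569% of all genes. Before the HDL condition was applied, 25 genes of the G2 and M list had fallen by 1.5 or more after cholesterol with separate arrays, and the other 17 of them lay above the threshold after HDL. Of the S list 6 genes had fallen as far, and 6 of these lay above the threshold after HDL; of the G1 list 6 had, and 5 of these lay above it. Among all 16860 genes 189 had fallen as far after cholesterol, and 100 of these also met the limit after HDL, beside 8 of 25 in the G2 and M list. The larger share of this list among the members was thus already present after cholesterol, and a smaller part of its falls persisted. This was not tested. The members in this list had median changes from baseline of -2.52 after cholesterol and -1.80 after HDL.

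Those 8 members averaged 9.81 and 10.04 on the baseline arrays, 7.19 and 7.59 on the cholesterol arrays, and 8.32 and 7.74 on the HDL arrays. The first HDL array was well above both cholesterol arrays and the second was 0.14 above the higher one. HDL minus cholesterol was above 0 in 8 of 8, from 0.05 to 0.90 with a median of 0.70, but limma called none of them (adjusted p = 0.119 to 0.928). HDL replicate 1 was above replicate 2 in 7 of 8. Against the cholesterol mean, the median rise was 1.11 on the first HDL array and 0.37 on the second. The 83 list genes that were not members had a median difference of 0.20, with 59 above 0 and 3 called. Among all genes 51.0% lay above 0 and 2.73% were called. These 83 include the 17 that fell after cholesterol but lay above the threshold after HDL, whose direction was fixed by that choice.

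The scran pairs name 13 members in all, beside 626 of the 16860 measured genes, and the other 83 members are in none of them. The 13 kept a median of 68.6% of their fall after HDL, and HDL minus cholesterol was above 0 in 12. The HDL arrays differed here: the 13 averaged 8.11 on the first and 7.55 on the second, beside 6.93 and 7.33 on the cholesterol arrays, and the first HDL array was the higher in 11 of 13. Their median rise over the cholesterol mean was 1.14 on the first HDL array and 0.47 on the second, and the median share kept was 53.5% and 82.4%. The 83 kept a median of 101.7%, and 40 of 83 lay above 0, with a median difference of -0.04. On the HDL arrays taken singly the 83 kept medians of 100.7% and 96.1%. All 5 calls between the loaded groups fell among these 83. The 13 had deeper cholesterol falls, with a median of -2.54 against -2.08 for the 83. The rule lets a gene with a deeper fall keep a smaller share, so it sets part of this contrast. The difference between the 13 and the 83 was not tested, because the members had been chosen on these arrays.

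The share of the cholesterol fall kept after HDL varied widely. Over the 96 members its median was 95.1%, from 49.9% to 202.1%. It was under 70% in 13 members, between 70% and 90% in 24, between 90% and 110% in 36, and above 110% in 23. Members thus included both genes that had come back part of the way and genes that stood lower after HDL than before it. The rule sets no upper limit to the share, but it does set a lower one. A member had to stay past the threshold after HDL, so the smaller its cholesterol fall, the larger the share it had to keep. Another 89 genes passed the threshold after cholesterol with separate arrays but not after HDL, and were not taken. The median share and the counts therefore describe the members only.

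The same limits were applied to falls and to rises. Of 189 genes that had fallen by at least 1.5 after cholesterol with separate arrays, 100 (52.9%) met the same limit after HDL. Of 246 genes that had risen as far, 71.1% did. Of these 175 persistent rises limma called 33 between the loaded groups (18.9%), beside 5 of 96 members and 2.73% of all genes. The rule leaves a larger change more room to move between the loaded groups. Changes from baseline after cholesterol ran from -5.75 to 9.70 over all genes. Rises of at least 3 in both groups numbered 47, and falls among the members 5. These sets are unlike: no rise was left out, and the 100 falls include the 4 genes left out by the rule. The counts among the 96 members lack those 4, some of which fell further than every member. All these values rest on the same arrays, and no difference between rises and falls was tested.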

How the data were processed

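RNA of primary mouse aortic smooth muscle cells was hybridised to Affymetrix Mouse Genome 430 2.0 arrays, 2 per group. The deposited log2 values were made by the authors, per the labels' protocols, with Robust Multichip Average and an Ensembl release 59 probe mapping, in separate runs: analysis I (baseline and cholesterol) and analysis II (all 6 arrays). The RMA version is not stated there. The number of arrays limits the precision, and a change in total RNA per cell would not show.

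Groups came from the titles. The rule and HDL minus cholesterol used analysis II. Tests used two-sided moderated statistics of limma 3.58.1 under R 4.3.3, without a filter on dim genes and with 3 residual and 4.03 prior degrees of freedom and Benjamini-Hochberg adjustment over all genes; cholesterol minus baseline was fitted on analysis I. The one-way test per gene of the design text was an alternative. The limma script was tested on simulated data.

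The members and lists were chosen with earlier results of these data known. The reference table (GRCm38.p6) matched 0 identifiers, so 19 gene lists and 11 marker sets fixed by symbol, the promoter motifs and the neighbour counts were not tested. Without symbols, the rule for named genes took the 2 members with the largest smaller fall and the 2 largest called changes each way. Cell cycle lists came from scran 1.30.0: a gene entered a phase when it was the higher of at least 10 pairs and 90% of its pairs, and 25 genes in several lists were left out.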

Additional observations from a re-analysis of the deposited data

How the results depend on the processing

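HDL minus cholesterol was called for 461 genes and 5 members. These counts were 145 and 3 with the cholesterol and HDL arrays alone, and 29 and 0 with a minimum change of 1, a stricter rule by construction (117 genes and 3 members at an unadjusted p under 0.05). The one-way test per gene called 0 and 0, with 1577 genes and 4 members at an unadjusted p under 0.05. Leaving out 1 array at a time gave 74 to 1656 genes and 3 to 32 members; leaving out a baseline array amounts to the fit of the loaded arrays alone. With the replicate block 392 genes and 8 members were called, the 5 included. The labels' numbers were not taken to pair arrays. Replicate differences correlated across all genes by 0.13 between cholesterol and HDL, and by 0.02 and 0.01 for baseline with each. Over the members the correlations were 0.27 for cholesterol and HDL, 0.12 for baseline and cholesterol, and -0.29 for baseline and HDL. The 5 stayed called with array quality weights (7 members, 7.29%, and 2.47% of all genes called). They also stayed called without dim genes (92 members tested, 5.43% of them and 3.72% of the genes kept called). No direction of the 5 changed under any alternative run. The members' median difference of 0.10 ran from -0.0076 to 0.19 without 1 loaded array, and was 0.17 with a threshold of 2. Thresholds of 1 and 2 gave 253 and 35 members; without single arrays the rule took 82 to 103. For all genes, calls for cholesterol minus baseline numbered 4919, with 2671 to 4238 without single arrays, 38 by the one-way test and 394 with a minimum change of 1. For HDL minus baseline they numbered 3370, with 1263 to 4256 without single arrays, 278 with a minimum change of 1, and 0 by the one-way test (3391 at an unadjusted p under 0.05). Where not given, the cause was not tested.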

Other observations

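Genes next to the members behaved in 2 further ways. Of the genes that had fallen by at least 1.5 after cholesterol with separate arrays, 89 did not meet the same limit after HDL. Their HDL minus baseline change was at most -1 in 49, between -1 and -0.5 in 35, and above -0.5 in 5. HDL minus cholesterol was above 0 in all of these 89, from 0.14 to 2.09. Their selection fixed this direction, because each passed the threshold after cholesterol and lay above it after HDL. By limma, 33 of them were called higher, beside 1.79% of all genes. The G2 and M list held 17 of the 89.

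A further 30 genes met the limit after HDL but not after cholesterol. After cholesterol 23 of them had already fallen by at least 1 and 2 by less than 0.5. By limma, 9 of the 30 were called lower after HDL than after cholesterol, beside 0.949% of all genes. Their selection fixed this direction too. Both groups were chosen on the arrays that give these values, so the values describe them and test nothing.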
